A study of Mus musculus with 24 samples.

Results

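Accessible chromatin at the genes of the bone morphogenetic protein (BMP) pathway was followed through wound repair of mouse skin. The 10 genes were the ligand genes Bmp2, Bmp4, Bmp6 and Bmp7, the receptor genes Bmpr1a and Bmpr2, the antagonist gene Nog and the target genes Id1, Id2 and Id3. All peaks of the 8 deposited peak lists were merged into 63188 regions, and each region was given to the nearest protein-coding gene, at most 50 kb away, with distance 0 inside the gene. This gave 57 regions to the 10 genes, of 52791 regions given to any protein-coding gene. Assignment places a region near a gene and does not show that it acts on that gene.

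Accessibility was measured by ATAC-seq, in which a transposase inserts adapters into open DNA, on cells sorted by FACS from trypsin-treated skin. The mice were a cross of CD1 and C57BL/6J with a Cre-dependent yellow fluorescent reporter (R26-YFP). Descendants of hair follicle stem cells were collected on days 3, 7 and 80 of a partial-thickness wound (3, 2 and 3 samples). Descendants of epidermal stem cells were collected on days 80 and 7 of a full-thickness wound (2 and 3 samples). Hair follicle stem cells of day 0 (4 samples) and epidermal stem cells of day 80 (3 samples) and day 0 (4 samples) came from unwounded skin. Unwounded and partial-thickness mice carried Krt19-CreER, so that Cre was driven by Krt19, a gene of hair follicle stem cells. Full-thickness mice carried Sox9-CreER, driven by another gene of the hair follicle, although the labels call their sorted cells epidermal progeny. The genotype of the Cre line, the wound type and the labelled origin of the wound cells therefore cannot be told apart. The sources used here give neither age nor sorting gates. Groups are called unwounded follicle (hair follicle day 0 in the plots), partial-thickness, full-thickness and epidermal, by day.

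BMP ligands are secreted factors of the TGF-beta superfamily. They bind a complex of type I receptors, such as the product of Bmpr1a, and type II receptors, such as the product of Bmpr2, which phosphorylates Smad proteins that enter the nucleus with Smad4 and induce Id genes. Id proteins bind basic helix-loop-helix factors and keep them from DNA, and Noggin, the product of Nog, binds BMP ligands and blocks them. In skin, BMP signalling is known for holding hair follicle stem cells in quiescence and for its part in differentiation of the hair shaft and the epidermis.

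Each group is represented by 1 peak list, so the values are peaks called or not called, no error between replicates exists and no test between groups was run. The lists held 29365 to 37214 peaks. The lowest −log10 p of a kept peak ran between 7.864 (epidermal day 80) and 40.19 (partial-thickness day 7), and the median peak width between 460 and 987 bp. Absence from a list thus means no peak above that list's own minimum, and read depth is unknown. The day 0 epidermal list was matched by the name it was deposited under, while the names of its peaks are tagged as control of day 7, so the comparisons of unwounded follicle and of full-thickness day 7 with it are also given with the day 80 epidermal list. As a check of the labels, gene ends of hair follicle stem cell markers held a region at 7 of 7 genes in unwounded follicle cells and at 4 to 7 in the other lists. This included 7 of 7 in the day 0 epidermal list, so these counts did not set the populations apart. Basal keratinocyte markers had 5 of 6 in unwounded follicle cells and 3 to 6 elsewhere, and Krt14 and Klf5 were held by every list. Krt5 was missing from the day 0 epidermal list and Itgb4 from the day 80 full-thickness list. Col17a1 was held in unwounded follicle cells, on partial-thickness day 3 and on epidermal day 80 alone. Trp63 was held by the day 80 partial-thickness and day 80 epidermal lists alone. Fibroblast markers had 1 or 2 of 5, endothelial markers 0 or 1 of 4, immune markers 0 or 1 of 5 and melanocyte markers 3 of 5 in all lists. Ptprc, Cd3e, Pecam1, Cdh5 and Pdgfra had no region in any of the 8 lists. Tie1, an endothelial marker, had a region in the 3 early wound lists and Cd68, a macrophage marker, in those and the unwounded follicle list. The fibroblast marker Col1a1 had a region in every list. The part of other cell types in the results below was not tested.

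Promoter sequences show which DNA the presence calls at the gene starts refer to. RefSeq's table of the GRCm38.p6 assembly, the assembly of mm10, held promoters of 6 of the 10 genes (Bmp4, Bmp6, Bmpr1a, Bmpr2, Id2 and Id3). The 250 bases before the start of transcription are printed 5′ to 3′ on the strand of the gene. Bmp4 (minus strand, chr14:46390670-46390919) and Bmpr1a (minus strand, chr14:34502547-34502796) are shown because the region over or beside the start differed between lists. Bmpr2 (plus strand, chr1:59764029-59764278) is shown because its region was in all lists while a peak reached these bases in only 3. Id2 (minus strand, chr12:25096093-25096342) and Id3 (plus strand, chr4:136143572-136143821) are shown as targets with a peak over these bases in all 8 lists. Capitals mark GGCGCC, a GC-rich motif bound by Smad1 and Smad5, and CAGAC or its complement GTCTG, a Smad motif.
Bmp4: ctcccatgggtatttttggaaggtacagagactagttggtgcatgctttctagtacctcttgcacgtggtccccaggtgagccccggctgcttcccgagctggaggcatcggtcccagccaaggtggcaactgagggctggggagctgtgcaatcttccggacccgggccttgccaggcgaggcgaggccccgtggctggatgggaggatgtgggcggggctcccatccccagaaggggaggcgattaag
Bmpr1a: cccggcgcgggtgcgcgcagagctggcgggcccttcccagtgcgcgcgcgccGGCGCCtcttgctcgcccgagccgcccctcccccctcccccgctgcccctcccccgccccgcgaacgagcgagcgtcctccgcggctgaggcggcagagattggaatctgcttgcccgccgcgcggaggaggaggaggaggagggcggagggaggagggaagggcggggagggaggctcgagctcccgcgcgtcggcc
Bmpr2: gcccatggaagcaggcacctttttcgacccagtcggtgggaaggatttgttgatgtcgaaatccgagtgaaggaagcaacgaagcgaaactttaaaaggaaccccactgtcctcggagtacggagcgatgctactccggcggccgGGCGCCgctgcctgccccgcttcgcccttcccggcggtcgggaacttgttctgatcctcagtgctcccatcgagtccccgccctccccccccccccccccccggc
Id2: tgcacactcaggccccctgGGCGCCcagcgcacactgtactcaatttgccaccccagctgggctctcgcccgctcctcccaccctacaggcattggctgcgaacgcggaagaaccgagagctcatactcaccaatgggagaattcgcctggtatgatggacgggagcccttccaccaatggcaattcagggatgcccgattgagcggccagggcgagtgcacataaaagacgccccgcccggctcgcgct
Id3: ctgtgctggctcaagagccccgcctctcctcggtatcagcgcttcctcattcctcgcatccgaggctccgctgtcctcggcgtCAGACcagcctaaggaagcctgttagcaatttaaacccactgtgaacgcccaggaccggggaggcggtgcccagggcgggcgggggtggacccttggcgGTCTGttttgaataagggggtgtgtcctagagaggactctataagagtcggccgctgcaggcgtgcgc

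On both strands, GGCGCC occurred once in the upstream bases of Bmpr1a, Bmpr2 and Id2, against 12.1% of the 17486 promoters of the table. CAGAC occurred at 2 places in Id3 and 1 in Bmp6, against 40.9% of promoters. The AP-1 motif TGANTCA (6.22% of promoters) and TATAAA (12.4%) were in none of the 6, and Bmp4 held none of the 4 motifs. No match overlapped another. GC content was 63.2% in Bmp4, 68.8% in Bmp6, 78.8% in Bmpr1a, 64.0% in Bmpr2 and 62.8% in both Id2 and Id3, all above the median promoter (55.2%). A motif match is a description of the letters and not a binding site.

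Of the 57 regions, 15 (26.3%) were in all 8 lists, close to the 24.4% of all assigned regions, 33 were in 2 to 7 lists and 9 in 1 list. Inside the genes lay 19 regions, 12 were within 1 kb of a gene end and 21 were more than 10 kb away. Regions in all lists were wide (median 1845 bp) and 7 of the 15 lay within 1 kb of a gene end. Those in some lists were narrower (median 880 bp), with 5 of 42 at a gene end. The peaks of the common regions stood at a median percentile of 63.5 by score within their own list, where 100 is the strongest peak, and those of the varying regions at 40.0. Over all assigned regions the same medians were 74.0 and 33.0. Regions are numbered within each gene from the lower coordinate upward.

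**Figure D1:**
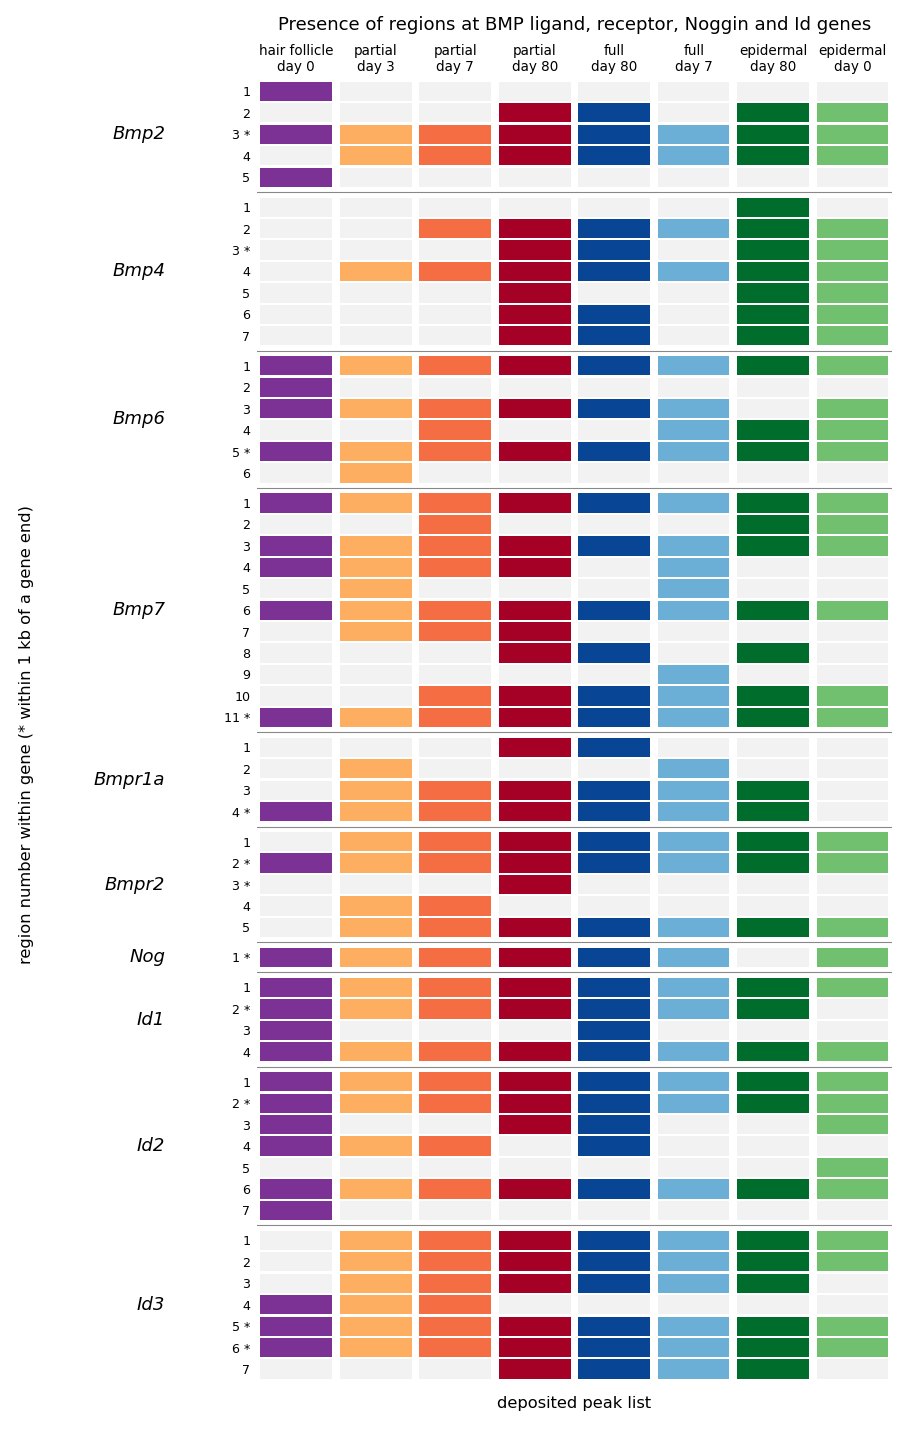
Presence of the 57 regions (rows, numbered within each gene) in the 8 deposited peak lists (columns). A coloured cell is a region with at least 1 peak of the list and a grey cell a region with none, and an asterisk marks regions within 1 kb of a gene end. Bmp4 is empty in the hair follicle column and nearly filled in the day 80 and epidermal columns, whereas Id2 is fullest in the hair follicle column.

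By role, the 29 ligand regions numbered 12 in unwounded follicle cells, 14, 16 and 20 on partial-thickness days 3, 7 and 80, 17 and 16 on full-thickness days 80 and 7, and 20 and 19 on epidermal days 80 and 0. The 9 receptor regions numbered 2 in unwounded follicle cells, 7, 6 and 7 on partial-thickness days 3, 7 and 80, 6 and 6 on full-thickness days 80 and 7, and 5 and 3 on epidermal days 80 and 0. The 18 target regions numbered 13 in unwounded follicle cells, 13 on each partial-thickness day, 15 and 12 on full-thickness days 80 and 7, and 12 and 11 on epidermal days 80 and 0. The unwounded follicle list held the smallest share of all assigned regions too (46.8%, against 49.2 to 61.2% in the other lists) and 49.1% of the regions of the 10 genes. Its 2 of 9 receptor and 12 of 29 ligand regions are smaller parts than these shares, and its 13 of 18 target regions a larger one. Of the ligand genes, Bmp4 had 0 of 7 regions there, Bmp2 3 of 5, Bmp6 4 of 6 and Bmp7 5 of 11. Without Bmp4 the ligand part was not smaller. Of the target genes, Id1 had 4 of 4, Id2 6 of 7 and Id3 3 of 7. Differences between roles were not tested.

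Bmp4, which encodes a secreted ligand (gene ID 12159, chr14:46383525-46390669), had the widest range over the lists of the 10 genes. It had 0 of its 7 regions in unwounded follicle cells, 1, 2 and 6 on partial-thickness days 3, 7 and 80, 5 and 2 on full-thickness days 80 and 7, and 7 and 6 on epidermal days 80 and 0. The early wound lists and the unwounded follicle list were thus low in number, and the healed and unwounded epidermal lists high. How many other genes divide the lists in this way was not counted. With peaks required to cover 50% of the region, the day 80 full-thickness list was no longer high, with 2 Bmp4 regions. Full-thickness day 7 then had 1, partial-thickness days 3, 7 and 80 had 1, 1 and 6, and epidermal days 80 and 0 had 6 and 5. With the window widened to 100 kb, 4 further regions 63558 to 79524 bp from the gene entered, and the counts became 0 in unwounded follicle cells, 1, 3 and 10 on partial-thickness days 3, 7 and 80, 9 and 3 on full-thickness days 80 and 7, and 10 on each epidermal day. With a 10 kb window Bmp4 had 3 regions and ranged over 0 to 3, no wider than Bmpr1a (0 to 3) or Bmp7 (2 to 5). Its counts were then 0 in unwounded follicle cells, 1, 2 and 3 on partial-thickness days 3, 7 and 80, 3 and 2 on full-thickness days 80 and 7, and 3 on each epidermal day.

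Region 3 of Bmp4 (chr14:46389838-46391359) covered the start of transcription and the 250 bases printed above. Its peaks stood at percentile 75.3 in the day 80 partial-thickness list, 70.2 in the day 80 full-thickness list, 81.0 on epidermal day 80 and 73.6 on epidermal day 0, with summits at -175, -113, -113 and -205 bp from the start in the same order of lists. Their fold enrichments over local background, as deposited by the authors, were 6.15, 7.03, 6.25 and 5.76 in the same lists. No peak of the unwounded follicle list or of the 3 early wound lists touched the region. The −log10 p of the called peaks was 76.43, 27.29, 36.0 and 48.46, in the same order of lists. The lowest kept value was 39.7 and 40.19 on partial-thickness days 3 and 7. It was 32.24 on full-thickness day 7 and 17.3 in unwounded follicle cells. Peaks as weak as the day 80 full-thickness one would thus be missing from the early wound lists, so their lack of a call does not show a closed promoter. Regions 5 (chr14:46408265-46408858), 6 (chr14:46421737-46423225) and 7 (chr14:46439252-46440123), on the upstream side of the gene, were likewise in both epidermal lists and the day 80 partial-thickness list and in no early list. The day 80 full-thickness list held regions 6 (percentile 6.56) and 7 and lacked region 5. The −log10 p of their peaks ran from 19.08 to 39.91 in region 5, 9.05 to 46.94 in region 6 and 27.31 to 33.23 in region 7. Most of these peaks were weaker than the lowest kept value of each early wound list. The lack of a call there thus does not show that regions 5, 6 and 7 were closed. Region 4 (chr14:46397339-46399088), 6669 bp upstream, was in every list but the unwounded follicle list, at percentile 6.27, 55.1 and 66.5 on partial-thickness days 3, 7 and 80. Region 2, inside the gene, was absent from the hair follicle and day 3 lists. It stood at percentile 1.67 on partial-thickness day 7 and 64.0 on day 80, at 54.5 and 17.3 on full-thickness days 80 and 7, and at 68.5 and 41.9 on epidermal days 80 and 0. Region 1 was in the day 80 epidermal list alone.

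Bmp2, another secreted ligand (gene ID 12156, chr2:133552159-133562896), had 3 regions in unwounded follicle cells, 2, 2 and 3 on partial-thickness days 3, 7 and 80, 3 and 2 on full-thickness days 80 and 7, and 3 on each epidermal day. The number hardly varied while the regions did. Regions 1 and 5, 4662 and 4367 bp from the gene on either side, were in unwounded follicle cells alone, at percentile 34.5 and 22.4. Region 4 (chr2:133564410-133565503), 1513 bp beyond the gene's higher-coordinate end, was in every list but the unwounded follicle list. Its percentile was 26.9, 66.6 and 84.3 on partial-thickness days 3, 7 and 80, 95.6 and 39.7 on full-thickness days 80 and 7, and 94.4 and 96.9 on epidermal days 80 and 0. Cut-offs and lengths differ between lists, so percentiles here and below place a peak within its own list and show no change between lists. Region 2, 1470 bp from the gene, was called in the same lists as the Bmp4 promoter, both epidermal and both day 80 wound lists only. Its peaks were weak, at percentile 27.9 in the day 80 partial-thickness list, 16.9 in the day 80 full-thickness list and 13.7 and 1.3 on epidermal days 80 and 0. Their −log10 p was 32.42, 10.56, 10.16 and 13.67 in the same order. All but the first were below the lowest kept value of every list that lacked region 2, so its absence there does not show a closed site. Region 3, over a gene end, was in all lists.

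**Figure D2:**
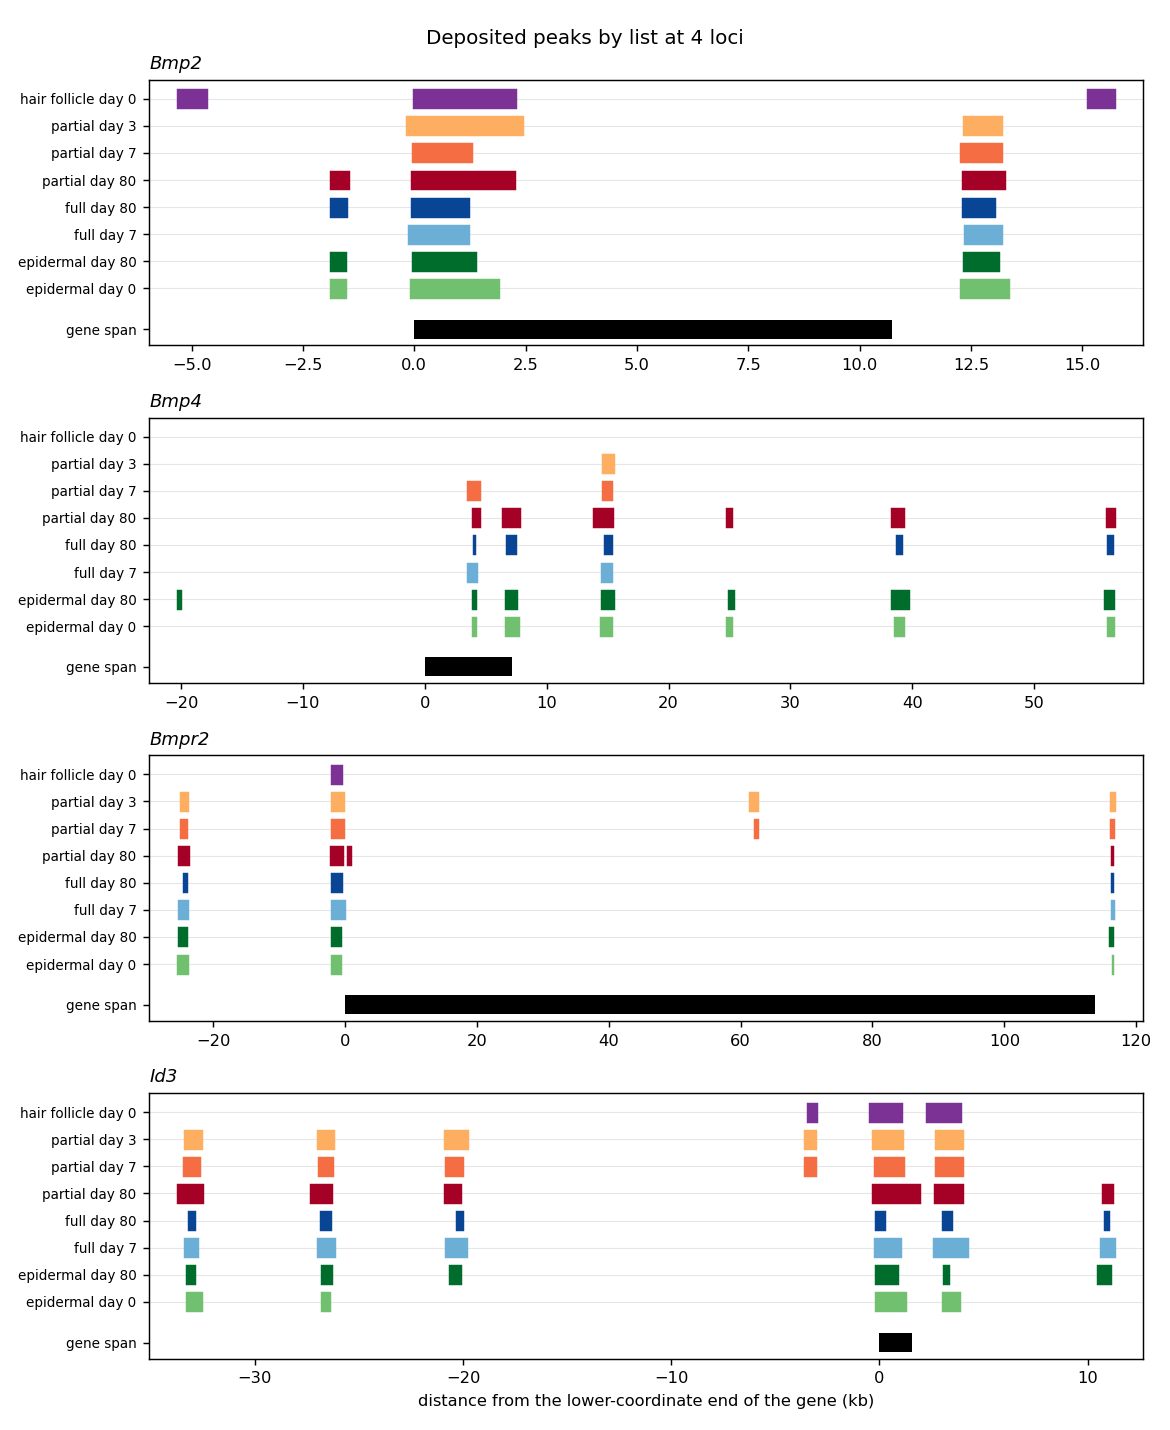
Deposited peaks (coloured bars, drawn to scale) of the 8 lists at Bmp2, Bmp4, Bmpr2 and Id3. The x axis gives the distance in kb from the lower-coordinate end of the gene, whose span is the black bar, and each panel has its own scale. Bmp4 shows no bar in the hair follicle row, 1 and 2 in the rows of partial-thickness days 3 and 7, and 5 to 7 in the rows of the day 80 and epidermal lists.

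Bmp6, a ligand made by keratinocytes (gene ID 12161, chr13:38345716-38500314), had 4 regions in unwounded follicle cells, 4, 4 and 3 on partial-thickness days 3, 7 and 80, 3 and 4 on full-thickness days 80 and 7, and 3 and 4 on epidermal days 80 and 0. Region 1 (chr13:38312080-38313167), 32548 bp before the gene, and region 5, which as merged covered the gene start, were in all lists. The region 5 peaks of full-thickness day 80 and epidermal day 80 ended before the start, at 38345264 and 38345658. Region 1 reached percentile 62.7 to 96.4. Region 3 (chr13:38320052-38321256) was in every list but the day 80 epidermal list, with percentile 60.3 in unwounded follicle cells, 88.1, 90.0 and 44.2 on partial-thickness days 3, 7 and 80, 56.3 and 81.8 on full-thickness days 80 and 7, and 32.5 in the day 0 epidermal list. Region 4 was in the partial-thickness list of day 7 (percentile 36.4), the full-thickness list of day 7 (14.3) and epidermal days 80 and 0 (3.62 and 20.5), a combination shared by 0.017% of assigned regions. Region 2 was in unwounded follicle cells alone (53.5) and region 6 in the day 3 list alone (36.1).

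Bmp7, a ligand that acts in several epithelia (gene ID 12162, chr2:172868012-172940321), had the most regions, 11. It had 5 in unwounded follicle cells, 7, 8 and 8 on partial-thickness days 3, 7 and 80, 6 and 8 on full-thickness days 80 and 7, and 7 and 6 on epidermal days 80 and 0. Regions 1, 3, 6 and 11 were in all lists, and region 11 (chr2:172937552-172940892) covered a gene end. Region 10, inside the gene, was absent from the hair follicle and day 3 lists. It stood at percentile 19.7 and 53.5 on partial-thickness days 7 and 80, 50.4 and 28.4 on full-thickness days 80 and 7, and 63.6 and 36.4 on epidermal days 80 and 0. Region 7 (chr2:172876631-172878454), also inside the gene, was in the 3 partial-thickness lists alone, with percentile 24.9, 18.6 and 5.2 on days 3, 7 and 80. Region 5 was in the lists of partial-thickness day 3 (percentile 40.0) and full-thickness day 7 (25.9) alone. Region 4 was in unwounded follicle cells, all partial-thickness lists and the day 7 full-thickness list, at percentile 4.09 to 26.9, and in neither epidermal list. Region 8 was in the 3 day 80 lists alone, at percentile 8.42 in the partial-thickness list, 21.3 in the full-thickness list and 26.5 in the epidermal list. Region 2 was in the day 7 partial-thickness list and both epidermal lists, and region 9 in the day 7 full-thickness list alone, at percentile 0.623.

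Bmpr1a encodes the type I receptor that is needed for hair differentiation (gene ID 12166, chr14:34411061-34503336). It had 1 of 4 regions in unwounded follicle cells, 3, 2 and 3 on partial-thickness days 3, 7 and 80, 3 on each full-thickness day, and 2 and 0 on epidermal days 80 and 0. Region 3 (chr14:34467379-34468262), inside the gene, was in the 5 wound lists and the day 80 epidermal list. Its percentile was 70.1, 68.6 and 50.1 on partial-thickness days 3, 7 and 80, 56.9 and 57.9 on full-thickness days 80 and 7, and 69.6 in the day 80 epidermal list. Neither day 0 list held it. Region 4 (chr14:34501647-34504848), at the gene start, was in every list but the day 0 epidermal list, mostly as a weak peak, at percentile 10.1 in unwounded follicle cells, 30.1, 17.5 and 7.61 on partial-thickness days 3, 7 and 80, 6.56 and 66.0 on full-thickness days 80 and 7, and 23.4 in the day 80 epidermal list. The start used for the printed promoter lies within the gene span, and the hair follicle peak did not reach those 250 bases. Region 2 was in the day 3 partial-thickness and day 7 full-thickness lists alone, and region 1 in the 2 day 80 wound lists alone.

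Bmpr2 encodes the type II receptor (gene ID 12168, chr1:59764279-59878081). It had 1 of 5 regions in unwounded follicle cells, 4 on each partial-thickness day, 3 on each full-thickness day and 3 on each epidermal day. Region 1 (chr1:59738881-59740668), 23610 bp before the gene, was in every list but the unwounded follicle list, at percentile 94.9, 88.5 and 87.7 on partial-thickness days 3, 7 and 80, 62.0 and 96.4 on full-thickness days 80 and 7, and 71.3 and 54.2 on epidermal days 80 and 0. Region 5, 2122 bp beyond the far end, was also missing from the unwounded follicle list alone. Region 4 (chr1:59825520-59826941), inside the gene, was on partial-thickness days 3 and 7 alone, at percentile 49.7 and 43.8. Region 2, beside the gene start, was in all lists, and the peaks of partial-thickness days 3 and 7 and full-thickness day 7 alone extended into the 250 bases printed above. Region 3, in the first bases of the gene, was in the day 80 partial-thickness list alone.

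Nog, the Noggin gene (gene ID 18121, chr11:89300638-89302559), had 1 region (chr11:89301409-89303862), which as merged overlapped the gene and was in every list but the day 80 epidermal list. Its percentile was 12.0 in unwounded follicle cells, 32.1, 14.6 and 41.8 on partial-thickness days 3, 7 and 80, 44.0 and 41.5 on full-thickness days 80 and 7, and 44.0 in the day 0 epidermal list. These are the strongest peaks of the region in each of the 7 lists, and all lay below the middle of their list. The summit lay inside the gene on full-thickness day 7 (89302254). In the other lists it lay beyond the gene's higher-coordinate end (89303573 to 89303616), so the percentiles refer to different sites. In unwounded follicle cells and on partial-thickness days 7 and 80, the only peak began beyond that end.

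**Figure D3:**
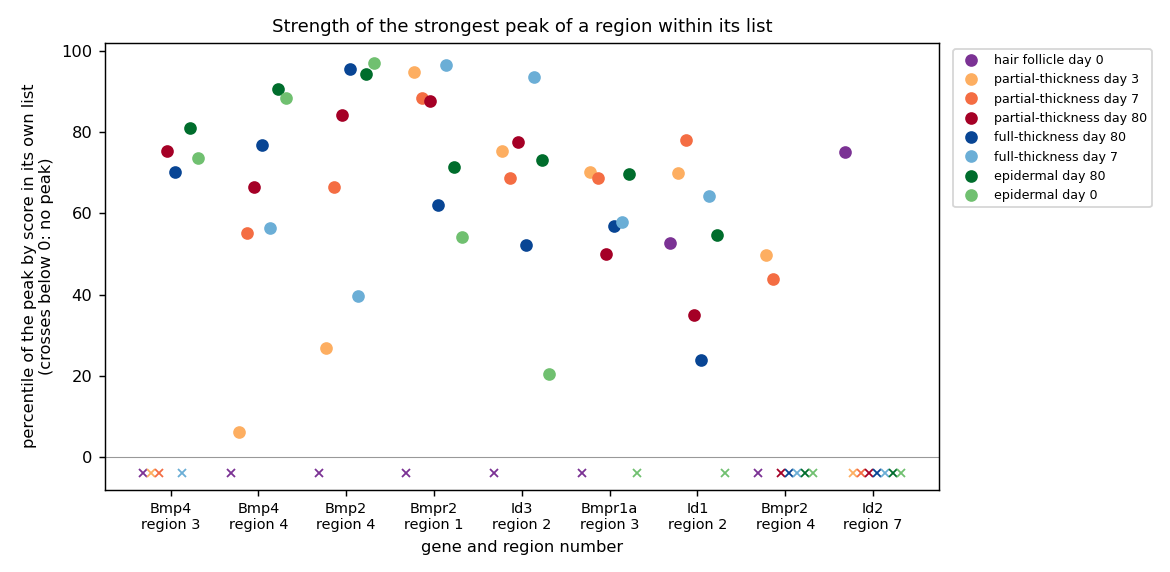
Percentile by score of the strongest peak of 9 regions within its own list (y axis, 100 is the strongest peak of the list), with 1 point per list and crosses below 0 for lists with no peak. Percentiles describe rank within a list only. The Bmp4 promoter (region 3) has points between 70.2 and 81.0 in 4 lists and crosses in unwounded follicle cells and the 3 early wound lists.

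Id1 encodes an inhibitor of helix-loop-helix factors that BMP induces directly (gene ID 15901, chr2:152736251-152737410). It had 4 regions in unwounded follicle cells, 3 on each partial-thickness day, 4 and 3 on full-thickness days 80 and 7, and 3 and 2 on epidermal days 80 and 0. Region 2 (chr2:152734658-152736925), which covered a gene end, was in every list but the day 0 epidermal list. Its percentile was 52.7 in unwounded follicle cells, 69.9, 78.1 and 34.9 on partial-thickness days 3, 7 and 80, 23.9 and 64.2 on full-thickness days 80 and 7, and 54.7 in the day 80 epidermal list. The gene end of Id1 was thus called in 1 of the 2 unwounded epidermal lists. Regions 1 and 4 were in all lists, and region 3 was in the hair follicle and day 80 full-thickness lists alone.

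Id2, an Id gene expressed in many epithelia (gene ID 15902, chr12:25093799-25096092), had more regions in unwounded follicle cells than any other of the 10 genes, 6 of its 7. The partial-thickness lists held 4 on each day, the full-thickness lists 5 and 3 on days 80 and 7, and the epidermal lists 3 and 5 on days 80 and 0. Region 2 (chr12:25095029-25096961) had a peak reaching into the printed promoter in all 8 lists. It stood at percentile 68.1 in unwounded follicle cells, 88.2, 93.4 and 88.6 on partial-thickness days 3, 7 and 80, 95.7 and 88.3 on full-thickness days 80 and 7, and 96.8 and 97.1 on epidermal days 80 and 0, with the summit at -124 bp from the start in 7 lists and -126 bp on epidermal day 80. The summit thus lay at nearly the same spot of the promoter in every list. Region 7 (chr12:25143105-25144056), 47012 bp from the gene, was in unwounded follicle cells alone, at percentile 75.0, the strongest of the 4 regions found there alone. Region 4 was in unwounded follicle cells (percentile 49.0), partial-thickness days 3 and 7 (10.5 and 17.2) and the day 80 full-thickness list (9.99). Region 3, 1388 bp from the gene, was in unwounded follicle cells (54.5), both day 80 wound lists (7.14 in partial, 4.59 in full) and the day 0 epidermal list (21.7), and in no early wound list. Regions 1 and 6 were in all lists, and region 5 was in the day 0 epidermal list alone.

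Id3, also a direct BMP target (gene ID 15903, chr4:136143822-136145392), had 3 of 7 regions in unwounded follicle cells, 6 on each partial-thickness day, 6 on each full-thickness day, and 6 and 4 on epidermal days 80 and 0. Regions 1 (chr4:136110104-136111327) and 2 (chr4:136116489-136117670), 32494 and 26151 bp from the gene, were in every list but the unwounded follicle list. Region 1 stood at percentile 6.27, 68.7 and 52.8 on partial-thickness days 3, 7 and 80, 40.8 and 74.3 on full-thickness days 80 and 7, and 50.7 and 14.5 on epidermal days 80 and 0. Region 2 stood at percentile 75.3, 68.7 and 77.6 on partial-thickness days 3, 7 and 80, 52.3 and 93.6 on full-thickness days 80 and 7, and 73.2 and 20.5 on epidermal days 80 and 0. Region 3 was in all wound lists and the day 80 epidermal list. These 3 distal regions were called in the 3 partial-thickness lists and not in unwounded follicle cells. With lists of equal length, 5 in place of 6 Id3 regions were called on partial-thickness day 3. Among the upper 50% of peaks by score, unwounded follicle cells and partial-thickness day 3 held 1 Id3 region each. With a 10 kb window, which leaves the distal regions out, they held 3 each. With peaks required to cover 50% of the region, or a 100 kb window, they held 3 and 6. Region 4, 3013 bp from the gene, went the other way from the distal regions. It was in unwounded follicle cells (percentile 11.2) and partial-thickness days 3 and 7 (22.6 and 17.2) and in no other. Regions 5, over the start, and 6 were in all lists, and region 5 ranked at percentile 5.65 in unwounded follicle cells and 15.2 to 45.7 in the others. Region 7, 8882 bp from the gene, was in the day 80 partial-thickness list, both full-thickness lists and the day 80 epidermal list, at percentile 18.5 to 37.3.

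**Figure D4:**
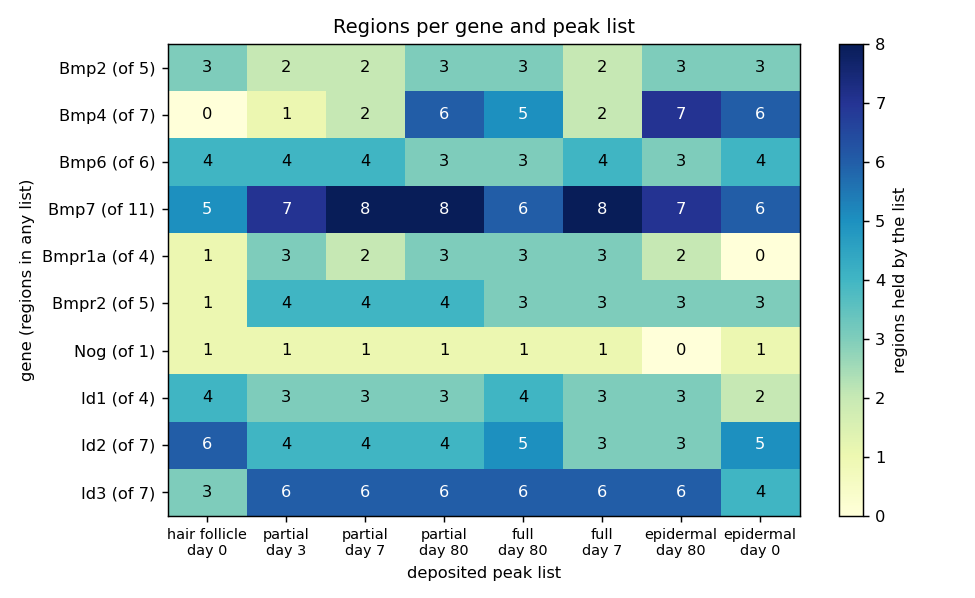
Number of regions held (cell value and colour) for each of the 10 genes (rows, with the number of regions in any list) in the 8 peak lists (columns). Bmp4 spans 0 to 7, the widest range of the 10 genes at this 50 kb window, and Bmp2, Bmp6 and Nog differ by at most 1 region between lists.

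Across genes, 6 regions (10.5%) were in every list but the unwounded follicle list, against 4.74% of all assigned regions: Bmp2 region 4, Bmp4 region 4, Bmpr2 regions 1 and 5, and Id3 regions 1 and 2. The hair follicle list alone held 4 regions (7.02%, against 7.44%). Absent from both the unwounded follicle list and all early wound lists, and present in both epidermal lists, were 5 regions (8.77%, against 4.14%), 4 of them at Bmp4 and 1 at Bmp2. Both day 80 wound lists held 4 of these 5 (7.02% of the 57, against 2.07%). Most peaks of these 5 regions were weaker than the lowest kept peaks of partial-thickness days 3 and 7. In a wound list and in no unwounded list were 8 regions (14.0%, against 28.8%), 3 at Bmp7, 2 at Bmpr1a, 2 at Bmpr2 and 1 at Bmp6. All 5 wound lists held 27 regions (47.4%, against 33.3%). Region 4 of Id3 shared its exact set of lists with 0.934% of assigned regions. With full-thickness day 7 left free, 1.65% of them were likewise in the follicle and early partial-thickness lists and in no epidermal or day 80 wound list. Every list but the day 0 epidermal list held 2 regions (3.51%, against 1.07%), at the gene starts or ends of Bmpr1a and Id1, and every list but the day 80 epidermal list held 2 (3.51%, against 0.627%), at Bmp6 and Nog.

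The first comparison asks how hair follicle stem cells differ from epidermal stem cells of unwounded skin. Of 44 regions in either day 0 list, 10 were in unwounded follicle cells only (22.7%, exact Clopper-Pearson 95% interval 11.5 to 37.8), against 24.3% of all assigned regions. In the epidermal list only were 16 (36.4%, 22.4 to 52.2), against 28.0%. Intervals cover counting error only, and regions of a gene are not independent. Bmp4 supplied 6 of the 16 epidermal regions, and the other 9 genes had 10 in each direction (26.3% each). Id1 had 4 regions in unwounded follicle cells, against 2 in the epidermal list, and this difference of 2 turned to -1 among the upper 50% of peaks by score. With the day 80 epidermal list in place of the day 0 list, 11 regions were in unwounded follicle cells only and 20 in the epidermal list only.

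The next comparisons follow the progeny of hair follicle stem cells through the partial-thickness wound. Of 41 regions in either list, 13 were in the day 3 list only (31.7%, 18.1 to 48.1, against 34.5% of all assigned regions), among them 3 at Bmpr2 and 3 at Id3, and 6 were in unwounded follicle cells only (14.6%, 5.57 to 29.2, against 17.4%). Day 7 differed little from day 3, with 4 regions in the day 7 list only (10.3%, 2.87 to 24.2, against 11.5%) and 3 in the day 3 list only (7.69%, 1.62 to 20.9, against 14.8%). With peaks required to cover 50% of the region this split was 4 and 8 (30.4% of all assigned regions differed). On day 80, 10 regions were in the day 80 list and not the day 7 list (21.7%, 10.9 to 36.4, against 18.7%), 4 of them at Bmp4, and 5 were in the day 7 list only (10.9%, 3.62 to 23.6, against 22.0%), at Bmp6, Bmp7, Bmpr2, Id2 and Id3. Among the upper 50% of peaks by score this split became 5 and 7. Set against their origin, the day 80 list alone held 20 regions (41.7%, 27.6 to 56.8, against 32.1%), 6 of them at Bmp4 and 4 at Id3, and the unwounded follicle list alone held 7 (14.6%, 6.07 to 27.8, against 20.9%).

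The healed wounds were compared with unwounded epidermis of the same day. Full-thickness mice differed from unwounded mice in Cre line as well, so wound and Cre line cannot be told apart there. Of 44 regions in either list, 7 were in the day 80 partial-thickness list only (15.9%, 6.64 to 30.1, against 17.6%) and 3 in the day 80 epidermal list only (6.82%, 1.43 to 18.7, against 12.9%). The 7 lay at Bmp6, Bmp7 (2 regions), Bmpr1a, Bmpr2, Nog and Id2. Among the upper 50% of peaks by score the split turned to 2 and 6, and with peaks required to cover 50% of the region it was 18 and 2, where 53.6% of all assigned regions differed. In the full-thickness wound, 6 of 43 regions were in the day 80 wound list only (14.0%, 5.3 to 27.9, against 17.2%) and 4 in the day 80 epidermal list only (9.3%, 2.59 to 22.1, against 14.7%), with 2 of these 4 at Bmp4. With lists of equal length this split was 4 and 6, and with the same cover it was 2 and 13 (66.2% of all assigned regions differed). Region 1 of Bmpr1a was in both healed wounds and in no other list. The 2 unwounded epidermal lists themselves differed by 7 regions in the day 80 list only (17.1%, 7.15 to 32.1, against 16.0%) and 4 in the day 0 list only (9.76%, 2.72 to 23.1, against 12.0%), of 41. With the 50% cover that split was 6 and 9 (47.2% of all assigned regions differed).

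In the full-thickness wound of day 7, 9 of 43 regions were in the wound list and not in the day 0 epidermal list (20.9%, 10.0 to 36.0, against 32.6%), 3 each at Bmp7 and Bmpr1a, 2 at Id3 and 1 at Id1. This pair also differs in Cre line, which cannot be told apart from the wound. In the epidermal list only were 8 (18.6%, 8.39 to 33.4, against 16.1%), 4 of them at Bmp4. With the day 80 epidermal list in place of the day 0 list the counts were 6 and 8 (49.0% of all assigned regions differed), and with a 100 kb window 10 and 13 (49.4%). Among the upper 50% of peaks they were 11 and 5 (53.9%) and with the 50% cover 16 and 8 (60.7%), so the balance of the directions depended on these settings. From day 7 to day 80 of this wound, 9 regions were in the day 80 list only (20.5%, 9.8 to 35.3, against 15.5%), 3 of them at Bmp4, and 5 in the day 7 list only (11.4%, 3.79 to 24.6, against 26.8%), 3 of them at Bmp7. The lists of the wound types, which also differ in Cre line and labelled cell origin, held much the same regions. On day 7, 4 of 40 were in the full-thickness list only (10.0%, 2.79 to 23.7, against 19.9%) and 5 in the partial-thickness list only (12.5%, 4.19 to 26.8, against 13.6%). On day 80, 2 of 43 were in the full-thickness list only (4.65%, 0.568 to 15.8, against 14.8%) and 4 in the partial-thickness list only (9.3%, 2.59 to 22.1, against 17.0%). Most of these comparisons share lists, so they are not independent of each other.

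**Figure D5:**
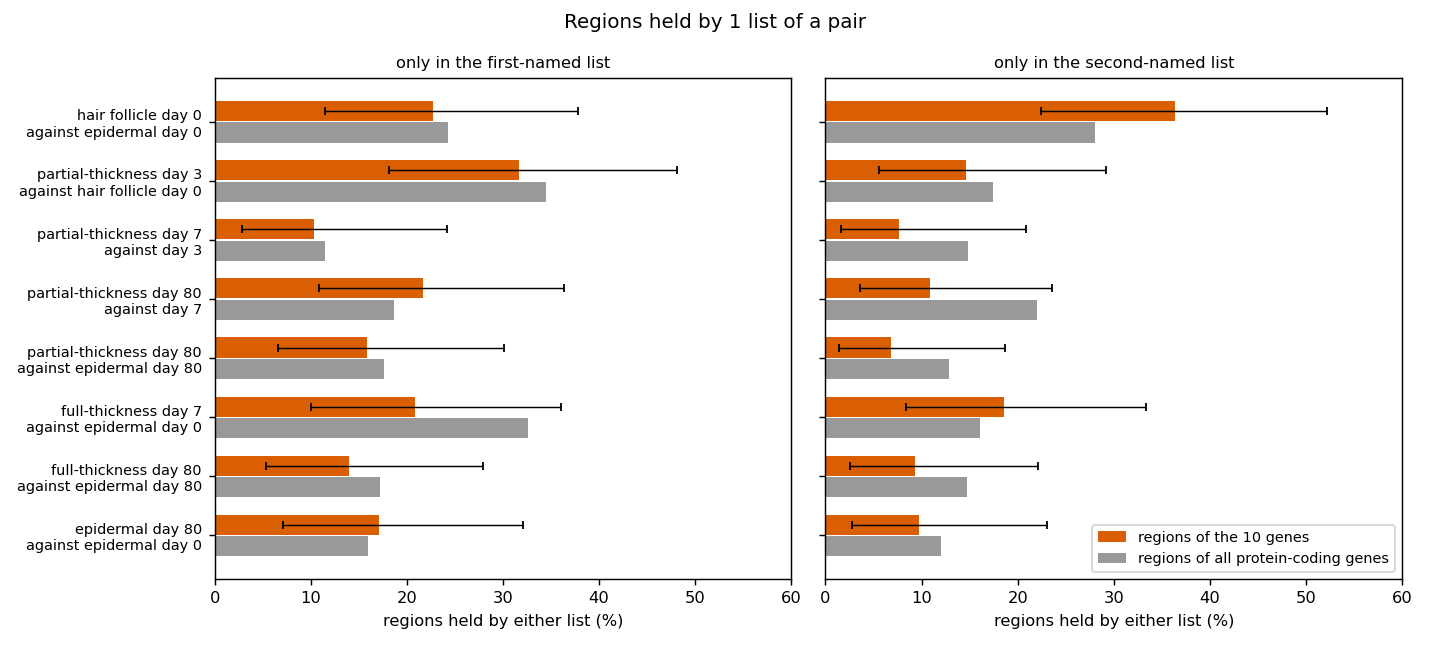
Share of the regions held by either list of a pair that only the first-named list (left) or only the second-named list (right) held, in percent. Orange bars are regions of the 10 genes with exact 95% intervals and grey bars are regions of all protein-coding genes. For hair follicle against epidermal day 0 the orange bar at the right reaches 36.4% and the grey bar 28.0%.

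The rest of the pathway was described from 43 further genes, 37 of which had 181 regions. Of these, 29 were in all lists (16.0%, against 24.4% of all assigned regions). The 181 regions numbered 85 in unwounded follicle cells, 101, 102 and 76 on partial-thickness days 3, 7 and 80, 85 and 91 on full-thickness days 80 and 7, and 93 and 87 on epidermal days 80 and 0. Of all assigned regions, 46.8% were in unwounded follicle cells and 59.0, 56.8 and 54.5% on partial-thickness days 3, 7 and 80. The same share was 53.1 and 61.2% on full-thickness days 80 and 7, and 51.5 and 49.2% on epidermal days 80 and 0. Between the day 0 lists of hair follicle and epidermis, 14 of the 37 genes had more regions in the follicle, 14 fewer and 9 the same number. Of their regions 31.5% were in the follicle list only (24.3% of all assigned regions) and 33.1% in the epidermal list only (28.0%). Between the day 80 partial-thickness and the day 80 epidermal list, 7 genes had more regions in the wound list, 15 fewer and 15 the same number. Of their regions 9.71% were in the wound list only (17.6% of all assigned regions) and 26.2% in the epidermal list only (12.9%). Between days 80 and 7 of the partial-thickness wound, 18 of 120 pathway regions were in the day 80 list only (15.0%, against 18.7% of all assigned regions) and 44 in the day 7 list only (36.7%, against 22.0%), where the 10 genes above had 10 and 5. Acvr1, a type I receptor gene, had 3 regions in unwounded follicle cells, 8, 7 and 2 on partial-thickness days 3, 7 and 80, 4 and 7 on full-thickness days 80 and 7, and 3 and 5 on epidermal days 80 and 0. The type I receptor gene Bmpr1b had 4 in unwounded follicle cells, 6, 14 and 10 on partial-thickness days 3, 7 and 80, 9 on each full-thickness day, and 11 and 10 on epidermal days 80 and 0. Rgma, a co-receptor gene, had 6 in unwounded follicle cells, 5, 4 and 2 on partial-thickness days 3, 7 and 80, 3 and 4 on full-thickness days 80 and 7, and 6 and 3 on epidermal days 80 and 0.

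Among the other ligand genes, Bmp3 had 0 regions in unwounded follicle cells, 5, 4 and 2 on partial-thickness days 3, 7 and 80, 3 and 5 on full-thickness days 80 and 7, and 3 and 2 on epidermal days 80 and 0. Bmp8b had 1 region in unwounded follicle cells and 2 in each other list, and Gdf6 had 0 to 2. Among effector genes, Smad1, which carries the BMP signal to the nucleus, had 6 in unwounded follicle cells, 8 on each partial-thickness and full-thickness day and 9 on each epidermal day. The inhibitory gene Smad7 had 8 in unwounded follicle cells, 6, 5 and 3 on partial-thickness days 3, 7 and 80, 6 and 7 on full-thickness days 80 and 7, and 4 and 3 on epidermal days 80 and 0. Smad6, also inhibitory, had 4 in unwounded follicle cells, 2 to 4 in the wound lists and 3 and 1 on epidermal days 80 and 0. Among antagonists, Sostdc1 had 6 in unwounded follicle cells, 3, 4 and 2 on partial-thickness days 3, 7 and 80, 3 on each full-thickness day, and 4 and 3 on epidermal days 80 and 0. Bmper, a BMP-binding protein gene, had 8 in unwounded follicle cells, 3, 4 and 5 on partial-thickness days 3, 7 and 80, 4 and 0 on full-thickness days 80 and 7, and 6 and 7 on epidermal days 80 and 0. Fst, the follistatin gene, had 1 to 4 regions in all lists. The targets Id4, Msx1 and Msx2 had 4 or 5, 0 to 3, and 3 or 4.

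The genes most like Bmp4 in number of regions, by the summed absolute difference over the 8 lists, were Cfap299 and Samsn1 (5 each). Cd96 followed at 6, a difference it shared with 3 further genes. Closest to Bmp7 was B4galt1 (3), followed by Laptm4a and Pgm2 (4 each), with 1 further gene at the same difference. This measure sets numbers of regions side by side across 8 lists and carries no test.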

How the data were processed

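Samples were grouped by title into 8 groups, and the deposited names of the 8 peak lists gave their groups. The lists are of narrowPeak layout on mm10, and MACS2 2.1.1.20160309, bedtools 2.29.2, Picard and Bowtie are named, with no role or order, per the submitters' processing notes. No source used here says whether replicates were pooled before calling. Each deposited peak carries the authors' score, which equals 10 times its −log10 q within 1 unit in 100% of peaks. It also carries a fold enrichment, a ratio over the local background deposited by the authors, and deposited −log10 p and −log10 q values. They served to rank and describe peaks inside a list. Gaps in the peak numbers show that 32.8% to 82.5% of the calls were kept, and read counts were not used here, so depth is unknown.

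The 267990 peaks were merged where they shared at least 1 bp, and a list held a region when 1 of its peaks overlapped it. Regions were given to the nearest of 21887 protein-coding genes of RefSeq's GRCm38.p6 table within 50 kb, and 0 of the 57 lay inside several genes. Exons, introns and UTRs were not analysed here. Shares were set beside those of all assigned regions, with exact Clopper-Pearson intervals (scipy 1.17.1, pandas 2.3.3). Merging and assignment were tested on simulated data. The 10 genes were all described. Of other pathway genes, up to 3 per role with the most varying regions were named. The genes most like Bmpr1a in number of regions are not reported here. The genes, lists and classes were chosen with earlier results of these data known. Alternatives were the upper 50% of peaks by score, lists of equal length, a 50% cover of the region, windows of 10 and 100 kb and, added after seeing the data, the day 80 in place of the day 0 epidermal list.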

Additional observations from a re-analysis of the deposited data

Results flagged for a closer look

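The healed wounds differed in opposite directions at Bmp7, by 1 region each, when set against unwounded epidermis of day 80. It had 8 regions in the day 80 partial-thickness list, against 7 in the day 80 epidermal list, a difference of 1. It had 6 in the day 80 full-thickness list, against the same 7, a difference of -1. The contrast between the wound types was 2 regions and rests on 1 list each, so it was not tested. Relative to the epidermal list, the partial-thickness list held regions 4 and 7 (percentile 26.9 and 5.2) and lacked region 2, and the full-thickness list lacked region 2 (25.6 in the epidermal list). The opposite directions did not hold under most alternatives. With lists of equal length the difference was -1 in both wounds, with a 100 kb window -1 in the partial-thickness and -3 in the full-thickness wound, among the upper 50% of peaks -2 and 0, and with a 10 kb window 1 and 0. With peaks covering 50% of the region it was 2 and -2.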

How the results depend on the processing

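No paired analysis was possible because each group has 1 peak list and the lists carry no replicate numbers. Among the upper 50% of peaks by score, the 57 regions became 34, the 26 that differed between hair follicle and epidermis of day 0 became 15 (68.2%, against 55.4% of all assigned regions) and the 19 between partial-thickness day 3 and hair follicle became 12 (60%, against 54.3%). Lists of equal length gave 11 regions in place of 7 between partial-thickness days 7 and 3 (29.7%, against 26.9%). A 50% cover of the region gave 12 for that pair (30.8%, against 30.4%) and 20 in place of 10 between the partial-thickness and epidermal lists of day 80 (48.8%, against 53.6%). The share of all assigned regions that differed moved with it, as the cover of 50% raised it to 53.6%, against 30.5% without it. With a 10 kb window, which leaves fewer regions, the total was 36. The counts were then 13 for hair follicle against epidermal day 0 (50%, against 49.4%), 12 for partial-thickness day 3 against hair follicle (44.4%, against 49.0%), 4 for day 7 against day 3 (16.0%, against 25.2%) and 9 for day 80 against day 7 (30.0%, against 38.7%). They were 5 for partial-thickness against epidermal day 80 (17.9%, against 29.5%), 9 for full-thickness day 7 against epidermal day 0 (34.6%, against 46.9%), 4 for full-thickness against epidermal day 80 (14.8%, against 30.5%) and 7 for epidermal day 80 against day 0 (28.0%, against 27.0%). A 100 kb window and the exchange of the epidermal lists moved no such count by over 1.5 times. The difference of Id1 between hair follicle and epidermis of day 0 (4 regions against 2) turned to -1 among the upper 50% of peaks. Cause was not tested. Bmp4 kept 0 regions in unwounded follicle cells under the 5 alternatives of peak cut, list length, cover and window. With lists of equal length it had 0, 1 and 6 on partial-thickness days 3, 7 and 80, 4 and 1 on full-thickness days 80 and 7, and 7 and 6 on epidermal days 80 and 0. Thresholds that differ between lists limit what the absence of a weak region shows.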

Other observations

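Between 50 and 100 kb lay 4 regions of Bmp4, 6 of Bmp7, 4 of Nog and 1 of Bmp2. Of the 4 Bmp4 regions 63558 to 79524 bp from the gene, none was in the hair follicle or day 3 list and all 4 were in the day 80 partial-thickness, day 80 full-thickness and day 0 epidermal lists. The most distant of them was also in both day 7 wound lists. Nog, with 1 region inside the window, had its 4 further ones between 51309 and 93206 bp. The nearest of these was in unwounded follicle cells, partial-thickness days 3 and 7 and the day 7 full-thickness list, and in no day 80 or epidermal list. Just inside the window, Bmp7 region 1 lay at 49984 bp and Bmp4 region 7 at 48582 bp. A further 30 regions lay within 50 kb of a member gene but nearer to a neighbour, 10 of them at Bmpr1a and 9 at Id1.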
